A study of Mus musculus with 15 samples.

Results

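The genes described here encode the nuclear subunits of respiratory complexes III and IV, cytochrome c and ATP synthase. They were taken as every mouse gene whose symbol begins with Uqcr, Cox4 to Cox8 or Atp5, or is Cyc1 or Cycs. Of 19748 genes with a symbol on the array, 44 met this rule, measured by 67 probes. Of these, 42 passed the filter on dim probes (3 or more of 15 arrays well above background), and all 42 were well above background on all 15 arrays. The 2 that did not pass were Cox7b2 and Cox8c, both known from testis. The 42 comprised 37 subunits made in most tissues, called ubiquitous here, the 3 muscle and brown fat isoforms Cox6a2, Cox7a1 and Cox8b, the regulated isoform Cox4i2, and the testis isoform Cox6b2.

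The RNA was taken from the mammary tumours of MMTV-PyMT females, mice in which the mouse mammary tumour virus promoter drives the polyoma middle T antigen in mammary epithelium, and all groups carry this transgene. In all, 4 groups were hybridised to 1-colour Agilent arrays, 1 array per sample: T0, taken before treatment (n = 4), and vehicle (n = 3), B20 (n = 4) and nintedanib (n = 4), taken at the end of treatment. Drug dosing began when the mice were 7 weeks old. B20 is the antibody B20-4.1.1, which binds VEGF and was given intraperitoneally at 5 mg/kg, 2 times per week, and nintedanib, a kinase inhibitor that acts on the VEGF, FGF and PDGF receptors, was given by oral gavage at 85 mg/kg per day. The age at the end of treatment and the vehicle are not stated in the sources used here. T0 replicate 4 carries both the label vehicle and the label of no treatment, and its title was followed, so it counts as T0. Whether replicates are different animals is not stated, so each p-value reflects no more than how far these arrays spread, and that spread may be technical.

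Complex III passes electrons from ubiquinol to cytochrome c, a small soluble carrier, and complex IV passes them from cytochrome c to oxygen. Both pump protons across the inner mitochondrial membrane, and ATP synthase uses the returning protons to make ATP, with its Fo part in the membrane turning against the catalytic F1 part. Complex IV also has tissue isoforms, of which Cox6a2, Cox7a1 and Cox8b replace Cox6a1, Cox7a2 and Cox8a in muscle and brown fat. Levels below are log2 signals minus the array's 75th percentile, and they are not compared between genes, since each probe has its own brightness. In whole tumours, fewer cells of a type and less RNA per cell cannot be told apart.

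The promoter windows of the ubiquitous genes and of the tissue isoforms are shown first, because their levels below differ most in how widely they varied. In RefSeq annotation on the assembly GRCm38.p6, 34 genes that met the symbol rule had a window from 250 bases before to 50 bases after the start. They include Atp5g1, which matched no probe and is not among the 37 ubiquitous members. The windows below are those of Cox6a1, which held both of the motifs searched for that are known from respiratory genes, of the ubiquitous partners Cox7a2 and Cox8a, and of the isoforms Cox7a1 and Cox8b. Capitals mark the NRF1 core (the runs that begin with GCGCA in the Cox6a1 window, with any base in the sixth place), CCGGAAG (the core of ETS and NRF2 sites), the MEF2 core (CTA at its start, TAG at its end and any 4 bases between) and TATAAA, all searched on both strands, and no marked matches overlapped.
Cox6a1, chr5:115348909-115349208, minus strand: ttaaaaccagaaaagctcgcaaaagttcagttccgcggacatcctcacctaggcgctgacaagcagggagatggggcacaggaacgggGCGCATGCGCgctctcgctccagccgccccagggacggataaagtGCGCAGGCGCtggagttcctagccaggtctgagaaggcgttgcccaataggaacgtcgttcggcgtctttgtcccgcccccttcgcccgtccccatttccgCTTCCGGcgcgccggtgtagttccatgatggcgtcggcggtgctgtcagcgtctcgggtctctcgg
Cox7a2, chr9:79759804-79760103, minus strand: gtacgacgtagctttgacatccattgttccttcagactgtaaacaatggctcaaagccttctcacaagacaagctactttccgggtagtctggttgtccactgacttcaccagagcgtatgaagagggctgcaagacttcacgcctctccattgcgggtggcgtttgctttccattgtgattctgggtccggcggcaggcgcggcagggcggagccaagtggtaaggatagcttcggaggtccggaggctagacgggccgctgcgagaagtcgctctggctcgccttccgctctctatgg
Cox8a, chr19:7217567-7217866, minus strand: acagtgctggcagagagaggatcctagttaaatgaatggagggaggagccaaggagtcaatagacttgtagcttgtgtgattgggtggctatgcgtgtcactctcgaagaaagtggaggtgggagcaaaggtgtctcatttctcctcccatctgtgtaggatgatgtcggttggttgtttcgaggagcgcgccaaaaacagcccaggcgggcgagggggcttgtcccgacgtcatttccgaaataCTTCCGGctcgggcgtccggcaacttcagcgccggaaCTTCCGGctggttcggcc
Cox7a1, chr7:30183921-30184220, plus strand: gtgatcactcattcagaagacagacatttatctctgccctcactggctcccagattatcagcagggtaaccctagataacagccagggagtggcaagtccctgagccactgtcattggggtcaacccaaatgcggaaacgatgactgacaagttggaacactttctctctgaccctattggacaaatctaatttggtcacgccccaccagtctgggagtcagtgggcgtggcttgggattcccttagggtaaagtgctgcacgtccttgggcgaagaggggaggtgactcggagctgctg
Cox8b, chr7:140900397-140900696, minus strand: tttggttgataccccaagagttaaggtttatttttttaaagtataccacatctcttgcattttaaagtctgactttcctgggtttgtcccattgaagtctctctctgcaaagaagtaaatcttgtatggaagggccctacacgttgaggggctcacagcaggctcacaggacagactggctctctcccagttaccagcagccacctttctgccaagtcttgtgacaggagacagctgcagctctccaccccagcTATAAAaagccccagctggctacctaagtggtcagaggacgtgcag
Cox6a1 held 2 NRF1 cores and 1 ETS core, and Cox8a held 2 ETS cores. Cox7a2 and Cox7a1 held neither, and Cox8b held 1 TATAAA. The Cox8b window held 2 CpG dinucleotides and that of Cox7a1 held 7, against 32 for Cox6a1, 20 for Cox7a2 and 19 for Cox8a. Counts over ubiquitous genes rest on the 30 with a window, Atp5g1 included. Of these, the NRF1 core was found in 8 (26.7%, against 5.19% of the 27025 genes with a window) and the ETS core in 11 (36.7%, against 9.93%). TATAAA was found in 2 (6.67%, against 15.7%), the MEF2 core in 1 (3.33%, against 4.23%) and the E-box CANNTG in 22 (73.3%, against 75%). The median CpG count was 19.5 in the ubiquitous windows and 7 over all windows. Ubiquitous genes ran from 5 to 39, so the count of Cox7a1 lay within their range. The isoform Cox6a2 had no window. A match describes letters and does not show a bound site.

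The arrays differed in ways that touch these values. On 14 arrays 54.6% to 68.8% of probes were well above background, while T0 replicate 3 reached 84.4%, and no spot was saturated. Vehicle, B20 and nintedanib lay together on 2 slides, 1 of 8 arrays and 1 of 3. The T0 arrays lay on 2 other slides with 2 arrays each, scanned on another day with another version of the signal extraction protocol, so differences between T0 and the treated groups cannot be told apart from these batches. Markers of skeletal muscle, brown fat and fat cells and the milk genes varied widely between arrays and are given beside the results. The mean level of 12 luminal epithelial markers, which define the labelled tumour tissue, was between 3.64 and 4.30 on every array, but its members went both ways: their differences ran from -2.45 to 0.54 in vehicle against T0 and from -2.28 to 0.73 in nintedanib against T0, where 1 of the 12 passed the limma test as lower (Elf5).

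Across the 15 arrays the ubiquitous subunits moved together in level, and the arrays of T0, of B20 and of nintedanib each spread more widely than the 4 group means did. Their mean level was 6.90, 6.44, 6.33 and 6.76 in T0 replicates 1 to 4 and 6.21, 6.42 and 6.21 in vehicle replicates 1 to 3. It was 6.56, 6.84, 6.15 and 6.28 in B20 replicates 1 to 4 and 5.93, 5.96, 6.45 and 6.29 in nintedanib replicates 1 to 4. T0 had the highest group mean (6.61 ± 0.27 SD) and nintedanib the lowest (6.16 ± 0.26 SD), with B20 (6.46 ± 0.31 SD) and vehicle (6.28 ± 0.12 SD) between them, and in this order every neighbouring pair of groups overlapped. B20 replicate 2 was the highest B20 array for 36 of the 37 genes, and B20 replicate 3 the lowest for 29. Nintedanib replicates 1 and 2 were the lowest of their group for 18 and 19 genes, and replicate 3 the highest for 26. In T0, replicate 1 was the highest for 26 and replicate 3 the lowest for 26. The median range of a ubiquitous gene over the 15 arrays was 1.19, and the widest was 1.92.

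**Figure D1:**
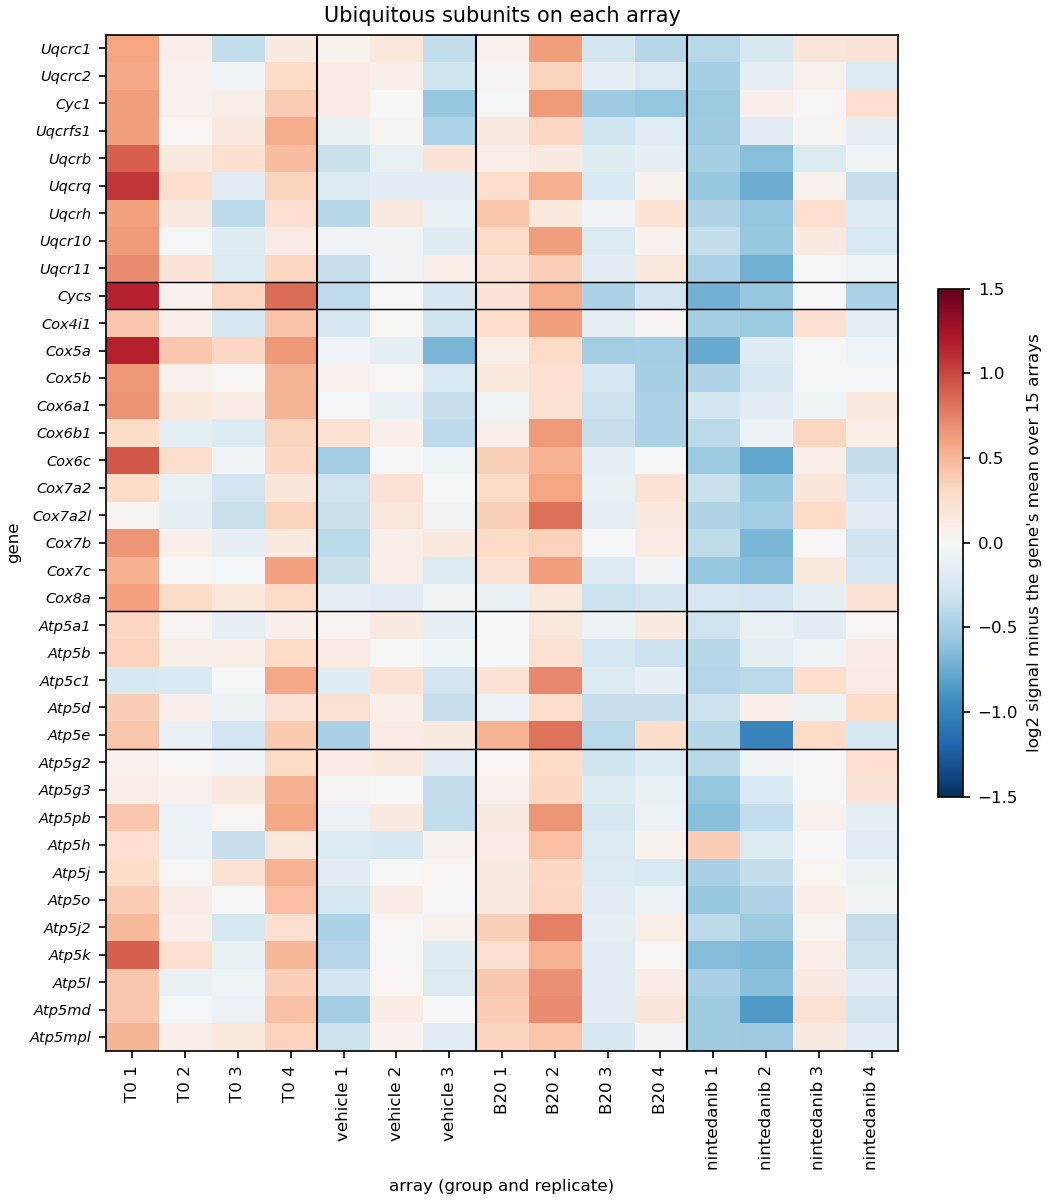
Each row is 1 of the 37 ubiquitous genes and each column 1 of 15 arrays. Colour is the log2 signal minus the gene's mean over the arrays, with red above and blue below. Whole columns share a colour: T0 replicate 1 and B20 replicate 2 are red and nintedanib replicates 1 and 2 are blue for most genes.

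In each role group the lowest arrays were nintedanib replicates 1 and 2. The 9 complex III subunits had means of 6.69, 6.09, 5.88 and 6.30 in T0, 5.85, 5.99 and 5.77 in vehicle, 6.15, 6.40, 5.75 and 5.86 in B20, and 5.50, 5.57, 6.04 and 5.89 in nintedanib. The 11 ubiquitous complex IV subunits lay between 6.47 and 7.10 in T0, between 6.33 and 6.55 in vehicle, between 6.30 and 6.99 in B20 and between 6.08 and 6.63 in nintedanib. The 11 Fo and stalk subunits of ATP synthase lay between 6.49 and 6.93 in T0 and between 6.08 and 6.60 in nintedanib. The 5 F1 subunits differed least between these groups, with means of 6.76 ± 0.20 (SD) in T0 and 6.49 ± 0.24 in nintedanib. Cytosolic ribosomal proteins are not part of the respiratory chain, and the mean of 82 of their genes was 7.61, 7.71, 7.56 and 7.97 in T0 and 7.41, 7.68 and 7.71 in vehicle. It was 7.97, 8.12, 7.61 and 7.86 in B20 and 7.28, 7.11, 7.82 and 7.64 in nintedanib. B20 replicate 2 was the highest array and nintedanib replicates 1 and 2 the lowest, while T0 replicate 1 and vehicle replicate 3 stood elsewhere in this order than they did for the subunits. Their part in the results below was not tested.

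**Figure D2:**
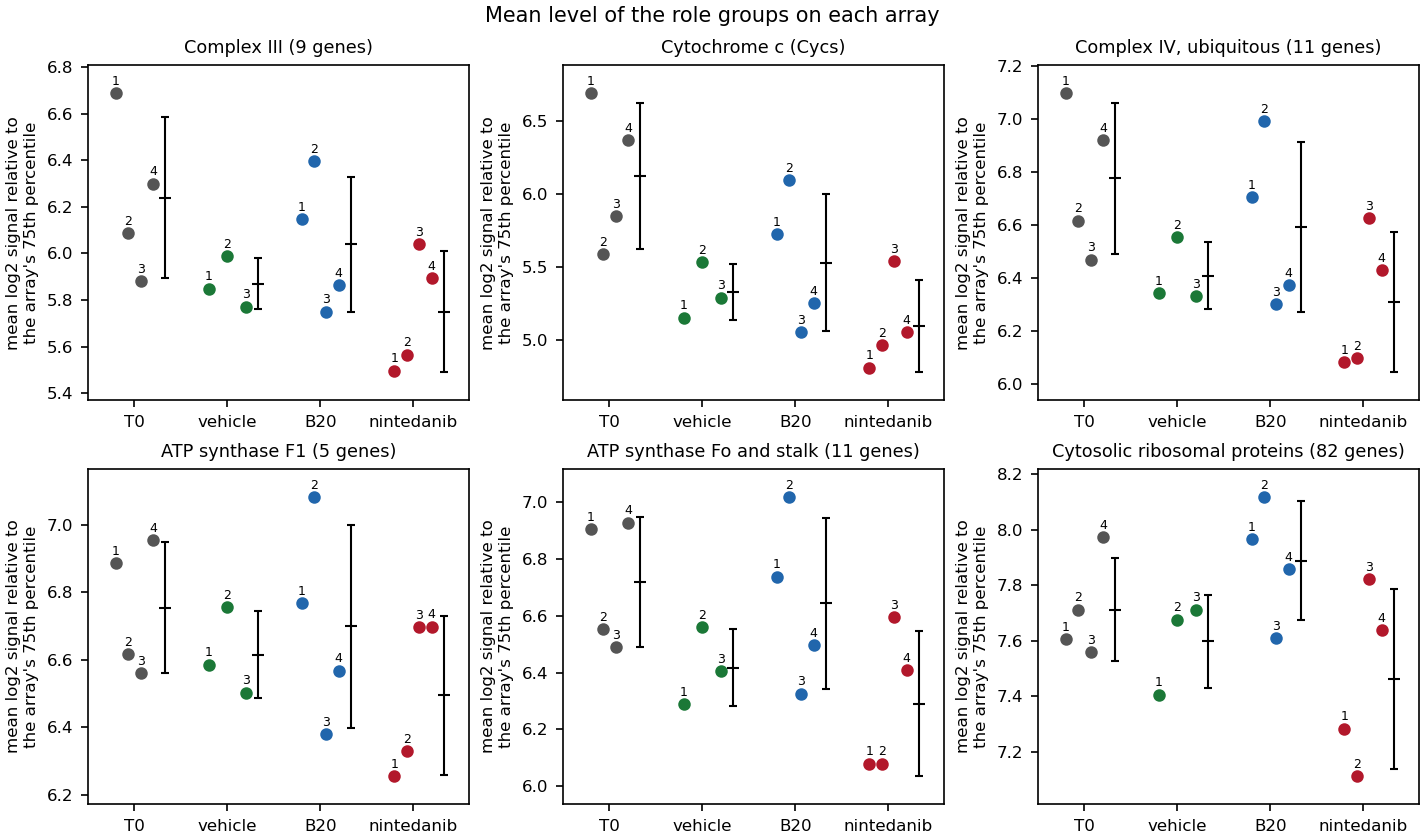
Mean log2 signal relative to the array's 75th percentile (vertical axis, its range differing between panels) in each of 4 groups for complex III, cytochrome c, complex IV, the F1 and Fo parts of ATP synthase, and cytosolic ribosomal proteins. Points are arrays, numbered by replicate, and bars are the group mean ± SD. Nintedanib replicates 1 and 2 are the lowest points in all 6 panels.

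The first comparison was vehicle at the end of treatment against T0, tumours that had grown on without drug. All 37 ubiquitous subunits were lower on average in vehicle, by a median of -0.31 (log2) where the median over all 28041 genes tested was 0.04 and 45.9% of them were lower. Of these 28041, 16107 had a gene symbol and the others were probe targets without one, and shares over all genes count both. After quantile normalisation 33 of 37 were lower (median -0.22), in the authors' log2 values 33 (-0.24) and with array weights 32 (-0.22). Another probe of Atp5h (0.09) and another of Cox7a2l (0.08) were higher in vehicle. None of the 42 members passed the limma test at an adjusted p of 0.05, which 4.94% of all genes passed. The median was -0.40 without T0 replicate 3, the bright array, and -0.23 without T0 replicate 4, the array with 2 labels. At an unadjusted p under 0.05, 11 members were lower and 1 higher, where 21.3% of all genes lay under it and 9.02% were also lower. The groups did not overlap for 9 members, against 16.7% of all genes.

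The 3 ubiquitous members with the lowest p in this comparison were Cox5a, Cycs and Cox8a. Cox5a, a matrix-side subunit of complex IV, was 7.65, 6.88, 6.79 and 7.13 in T0 and 6.44, 6.35 and 5.80 in vehicle. Every vehicle array lay below every T0 array, and the difference was -0.92 ± 0.28 (SE, adjusted p 0.0771). Cycs, the electron carrier cytochrome c, was 6.69, 5.59, 5.85 and 6.37 in T0 and 5.15, 5.53 and 5.29 in vehicle. The groups lay apart by a narrow gap between T0 replicate 2 and vehicle replicate 2, with a difference of -0.80 ± 0.30 (adjusted p 0.141). Cox8a, a small complex IV subunit, was 8.22, 7.88, 7.77 and 7.89 in T0 and 7.47, 7.42 and 7.55 in vehicle, also without overlap (-0.46 ± 0.17, adjusted p 0.146). Cox6a1, another complex IV subunit, was 9.10, 8.59, 8.54 and 8.93 in T0 and 8.39, 8.32 and 8.09 in vehicle. Its groups did not overlap either, and its difference was -0.53 ± 0.20 (adjusted p 0.149).

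In complex III, the 2 nuclear-encoded subunits that carry electrons were lower on average in vehicle. Uqcrfs1, the Rieske iron-sulphur protein, was 5.92, 5.31, 5.44 and 5.85 in T0 and 5.18, 5.33 and 4.82 in vehicle, overlapping at T0 replicate 2 (-0.52 ± 0.22, adjusted p 0.191). Cyc1, cytochrome c1, was 5.88, 5.31, 5.34 and 5.62 in T0 and 5.37, 5.26 and 4.68 in vehicle, again overlapping (-0.44 ± 0.30, adjusted p 0.457). Uqcrb, a small subunit near the ubiquinone site, was 7.09, 6.33, 6.43 and 6.66 in T0 and 5.86, 6.08 and 6.38 in vehicle (-0.52 ± 0.21, adjusted p 0.181). Of the 37 ubiquitous genes, 12 were lower by more than 0.4 and 5 differed by less than 0.1, namely Atp5a1, Atp5g2, Cox6b1, Cox7a2 and Cox7a2l. Atp5a1, the alpha subunit of the F1 head, was 6.90, 6.61, 6.45 and 6.65 in T0 and 6.62, 6.71 and 6.43 in vehicle, which overlap almost fully (-0.07 ± 0.15, adjusted p 0.85).

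The muscle and brown fat isoforms had the widest spread of all members. Cox6a2, the heart and skeletal muscle form of subunit 6a, was 6.63, 5.02, 2.99 and 1.17 in T0 and -1.41, -1.34 and 1.54 in vehicle. T0 replicate 4 lay below vehicle replicate 3, and the difference was -4.36 ± 1.66 (adjusted p 0.148). Cox8b, the isoform of muscle and brown fat, was 7.72, 5.98, 3.21 and 3.49 in T0 and 0.13, 1.61 and 2.0 in vehicle, without overlap. Its difference of -3.85 ± 1.12 came closest to the threshold (adjusted p 0.0653). Cox7a1, the form of subunit 7a in muscle and brown fat, was 7.25, 5.15, 3.52 and 3.66 in T0 and 2.82, 3.28 and 3.29 in vehicle. Its groups lay apart too, by a small margin at T0 replicate 3 (-1.77 ± 0.76, adjusted p 0.197). Without T0 replicate 3, Cox8b passed at an adjusted p of 0.0349, and without T0 replicate 4 at 0.0414.

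The partners that these isoforms replace varied over a narrower range. The range over 15 arrays was 4.79 for the isoform that varied least and 8.04 for the one that varied most, against at most 1.92 for any ubiquitous member. Cox7a2, the ubiquitous partner of Cox7a1, was 6.18, 5.78, 5.61 and 6.08 in T0 and 5.59, 6.11 and 5.88 in vehicle, which overlap (-0.05 ± 0.23, adjusted p 0.931). The partners Cox6a1 and Cox8a were lower in vehicle without overlap, as given above. Skeletal muscle markers stood in the same order as Cox6a2 over these arrays: the mean of 18 genes was 5.91, 4.40, 2.23 and 0.42 in T0 and -1.17, -1.05 and 1.25 in vehicle. In T0 replicate 4 these markers were lower than in replicate 3, while Cox8b (3.49 against 3.21) and Cox7a1 (3.66 against 3.52) were not. The mean of 8 brown fat markers was 1.94, 0.21, -2.01 and -1.30 in T0 and between -2.71 and -2.48 in vehicle. Of these 8, 6 were lower in vehicle and 2 higher, with differences from -8.15 to 0.95. T0 replicate 1 had the highest mean of both the muscle and the brown fat markers. On that array Ucp1, 1 of the 8 brown fat markers, was at 6.75. The muscle actin gene Acta1, 1 of the 18 muscle markers, was at 7.81 there, and neither stands for its list. The mean of 14 fat cell markers was between 2.94 and 5.19 in T0 and between -1.83 and 0.15 in vehicle, and 12 of the 14 passed the limma test as lower. Of 6 milk genes 3 passed as lower (median -2.47), and of 12 endothelial markers 4 did (median -0.97). The part of these cell types in the isoform and subunit values was not tested.

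**Figure D3:**
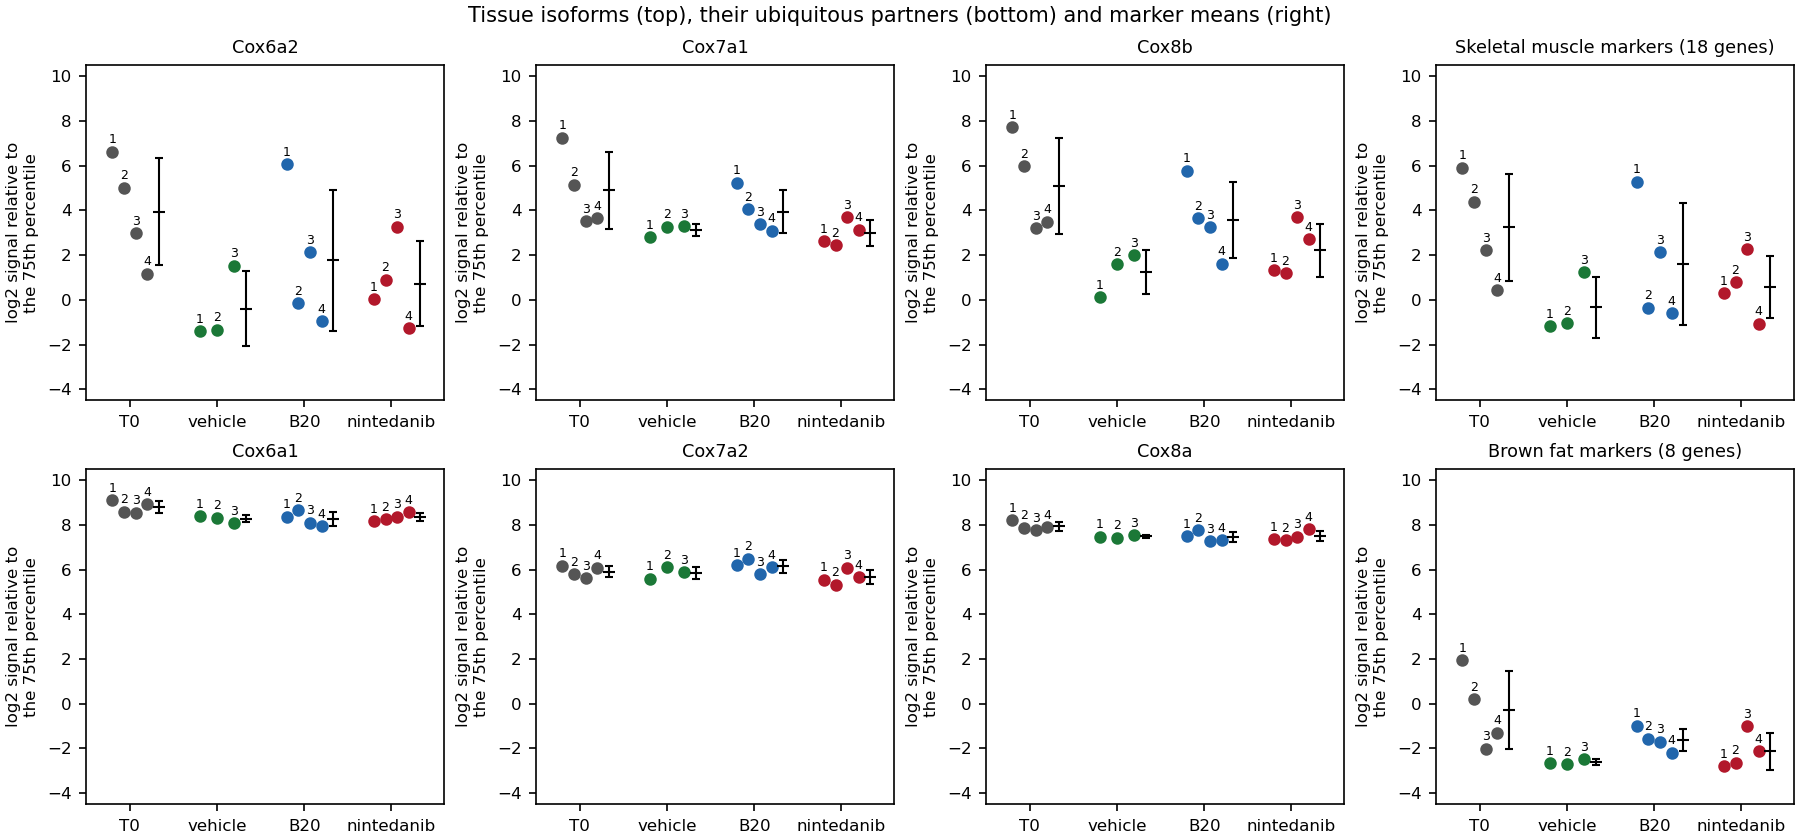
Log2 signal relative to the array's 75th percentile in each of 4 groups for the tissue isoforms Cox6a2, Cox7a1 and Cox8b (top) and their ubiquitous partners Cox6a1, Cox7a2 and Cox8a (bottom), with the mean of 18 skeletal muscle and 8 brown fat markers on the right. Points are arrays, numbered by replicate, and bars are the group mean ± SD. The isoforms and markers spread over several log2 units, with T0 replicate 1 highest throughout, while the partners stay in a narrow band.

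Cox4i2 went the other way from the ubiquitous subunits in this comparison. Cox4i2, the isoform of subunit 4 known from lung and from low oxygen, was -1.63, -1.64, -1.94 and -1.68 in T0 and -1.29, -1.49 and -0.57 in vehicle. Every vehicle array lay above every T0 array, and the difference was 0.60 ± 0.24 (adjusted p 0.16). Cox4i1, its ubiquitous counterpart, was 8.17, 7.87, 7.51 and 8.19 in T0 and 7.52, 7.80 and 7.47 in vehicle, overlapping (-0.34 ± 0.25, adjusted p 0.485). Cox6b2 differed by -0.12 (adjusted p 0.832). It differed by 0.18 in B20 against vehicle, -0.16 in nintedanib against vehicle and -0.34 in nintedanib against B20. These are the signs of the ubiquitous medians in the same comparisons. In B20 against T0 the signs differed, with 0.07 for Cox6b2 and a ubiquitous median of -0.13.

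The treated groups give the comparison free of the T0 batches. Against vehicle, B20 tumours had slightly higher levels of most ubiquitous subunits: 32 of 37 were higher and 5 lower, with a median of 0.23 (log2), where all genes had a median of 0.04 and 55.1% of them were higher. None of the 42 members passed the limma test, and neither did any other gene (0%). None lay at an unadjusted p under 0.05, against 3.25% of all genes, and no member had groups that did not overlap, against 5.41%. The median was lower without B20 replicate 2, at 0.05 with 25 genes higher and 12 lower. It was 0.24 among the 8 arrays of 1 slide and 0.08 among the 3 of the other, and 0.07 after quantile normalisation or with array weights.

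The members with the lowest p were Atp5l, Atp5j2 and Cox4i1. Atp5l, subunit g of Fo, was 6.71, 7.03 and 6.78 in vehicle and 7.41, 7.68, 6.83 and 7.11 in B20. B20 replicates 1, 2 and 4 lay above every vehicle array and replicate 3 did not (0.42 ± 0.24, adjusted p 0.998). Atp5j2, subunit f of Fo, was 7.04, 7.54 and 7.58 in vehicle and 7.87, 8.27, 7.38 and 7.62 in B20, with replicate 3 again inside the vehicle range (0.40 ± 0.24, adjusted p 0.998). Cox4i1 was 8.04, 8.40, 7.62 and 7.82 in B20, where replicate 3 lay inside the vehicle range given above (0.37 ± 0.25, adjusted p 0.998). By contrast, 11 of the 37 differed by less than 0.1, among them Cox6a1, Cox8a, Cyc1 and Uqcrb. Ribosomal proteins were higher in 81 of 82 cases, with a median of 0.27.

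The isoforms were higher on average in B20 than in vehicle, and none of the 3 passed the test. Cox6a2 was 6.07, -0.16, 2.13 and -0.94 in B20, so that replicate 1 stood far above the rest (2.18 ± 1.66, adjusted p 0.998). Skeletal muscle markers followed, at 5.28, -0.35, 2.13 and -0.61. Cox8b was 5.78, 3.65, 3.26 and 1.62, with replicates 1 to 3 above every vehicle array (2.33 ± 1.12, adjusted p 0.998). Cox7a1 was 5.25, 4.05, 3.39 and 3.1, with replicate 4 inside the vehicle range (0.82 ± 0.76, adjusted p 0.998). Without B20 replicate 1 the differences were 0.75 for Cox6a2, 0.38 for Cox7a1 and 1.60 for Cox8b. Fat cell markers were at 1.97, 0.94, 1.59 and -0.08 in B20, above 2 or all 3 of the vehicle arrays. Brown fat markers were at -0.99, -1.56, -1.70 and -2.19, every array above every vehicle array. The part of these cell types in the isoform values was not tested.

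Against vehicle, nintedanib tumours had slightly lower average levels of most ubiquitous subunits. Of the ubiquitous subunits, 31 were lower and 6 higher, with a median of -0.15 where all genes had -0.01 and 51.1% of them were lower. None of the 42 members passed the limma test, as for all genes (0%), none lay under an unadjusted p of 0.05 (4.83% of all genes), and no member's groups were apart (7.36% of all genes). The median was -0.06 without nintedanib replicate 1 or without replicate 2, -0.27 without nintedanib replicate 3 and -0.05 without vehicle replicate 2. It was -0.07 after quantile normalisation, and it was 0.0047 on the slide with 3 arrays against -0.21 on the slide with 8. Both drug comparisons share the vehicle arrays, so their values are given side by side and not set against each other.

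Cox7b, Uqcrb and Atp5a1 had the lowest p. Cox7b, a small subunit of complex IV, was 6.55, 7.06 and 7.10 in vehicle and 6.57, 6.26, 6.95 and 6.65 in nintedanib. Only replicate 2 lay below the vehicle range (-0.30 ± 0.22, adjusted p 0.999). Uqcrb was 5.69, 5.56, 5.99 and 6.14 in nintedanib, with replicates 1 and 2 below the vehicle range (-0.26 ± 0.21, adjusted p 0.999). Atp5a1 was 6.26, 6.47, 6.42 and 6.59 in nintedanib, with replicate 1 and, by a small margin, replicate 3 below it (-0.15 ± 0.15, adjusted p 0.999). The isoforms were 0.03, 0.90, 3.28 and -1.28 for Cox6a2, with a difference of 1.14 ± 1.66 (adjusted p 0.999). Cox8b was 1.33, 1.18, 3.69 and 2.70 (0.98 ± 1.12) and Cox7a1 was 2.62, 2.46, 3.71 and 3.15 (-0.15 ± 0.76). Nintedanib replicate 3 was the highest of its group for all 3, and in that array skeletal muscle markers were also highest (0.31, 0.80, 2.26 and -1.07 over the replicates). Brown fat markers were highest there too, at -2.79, -2.64, -1.0 and -2.14, while fat cell markers were highest in replicate 4, at -0.14, 0.25, 1.33 and 2.61.

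Set directly against each other, nintedanib tumours had lower average levels than B20 tumours for most ubiquitous subunits. Of 37 ubiquitous genes, 32 were lower and 5 higher in nintedanib than in B20, with a median of -0.32 where all genes had -0.04 and 55.3% of them were lower. None of the 42 members passed the limma test, and 0% of all genes did. At an unadjusted p under 0.05, 8 members were lower and none higher, against 9.38% of all genes in either direction and 5.47% lower. No member's groups were apart, against 5.72% of all genes.

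The 16 ubiquitous genes that were lower by more than 0.4 were Uqcrq, Uqcrh, Uqcr10 and Uqcr11 of complex III, the carrier Cycs, Cox4i1, Cox6c, Cox7a2, Cox7b and Cox7c of complex IV with the supercomplex factor Cox7a2l, and Atp5e, Atp5j2, Atp5k, Atp5l and Atp5md of ATP synthase. The 9 within 0.1 were Uqcrc1, a core subunit of complex III, Cyc1, Cox5a, Cox5b, Cox6a1, Cox6b1, Cox8a, the F1 beta subunit gene Atp5b and the c-ring gene Atp5g2. These names follow from sizes in the same comparison and are a description. Atp5md, a small Fo subunit also called DAPIT, was 6.75, 7.07, 6.20 and 6.55 in B20 and 5.83, 5.51, 6.59 and 6.08 in nintedanib. Nintedanib replicates 1, 2 and 4 lay below every B20 array and replicate 3 lay among them (-0.64 ± 0.26, adjusted p 0.524). Atp5j2 was 7.13, 6.98, 7.56 and 7.18 in nintedanib, where only replicate 3 reached the B20 range (-0.57 ± 0.23, adjusted p 0.524). Cox7b was 7.25, 7.30, 6.95 and 7.08 in B20, and again only nintedanib replicate 3 touched that range (-0.54 ± 0.21, adjusted p 0.522). Cox8a, from the latter set, was 7.49, 7.75, 7.28 and 7.33 in B20 and 7.35, 7.32, 7.47 and 7.81 in nintedanib, which overlap largely (0.02 ± 0.16, adjusted p 0.984).

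Ribosomal proteins behaved alike in this comparison, with all 82 lower and a median of -0.43. Medians were -1.14 for skeletal muscle, -0.35 for brown fat and -0.19 for fat cell markers and -0.71 for the milk genes, and 0.49 for the endothelial markers. The part of these genes in the result was not tested. The median of the ubiquitous subunits was -0.44 on the slide with 8 arrays, with all 37 lower, and -0.12 on the slide with 3 arrays, with 20 lower. It was -0.21 without B20 replicate 2 and -0.11 after quantile normalisation.

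**Figure D4:**
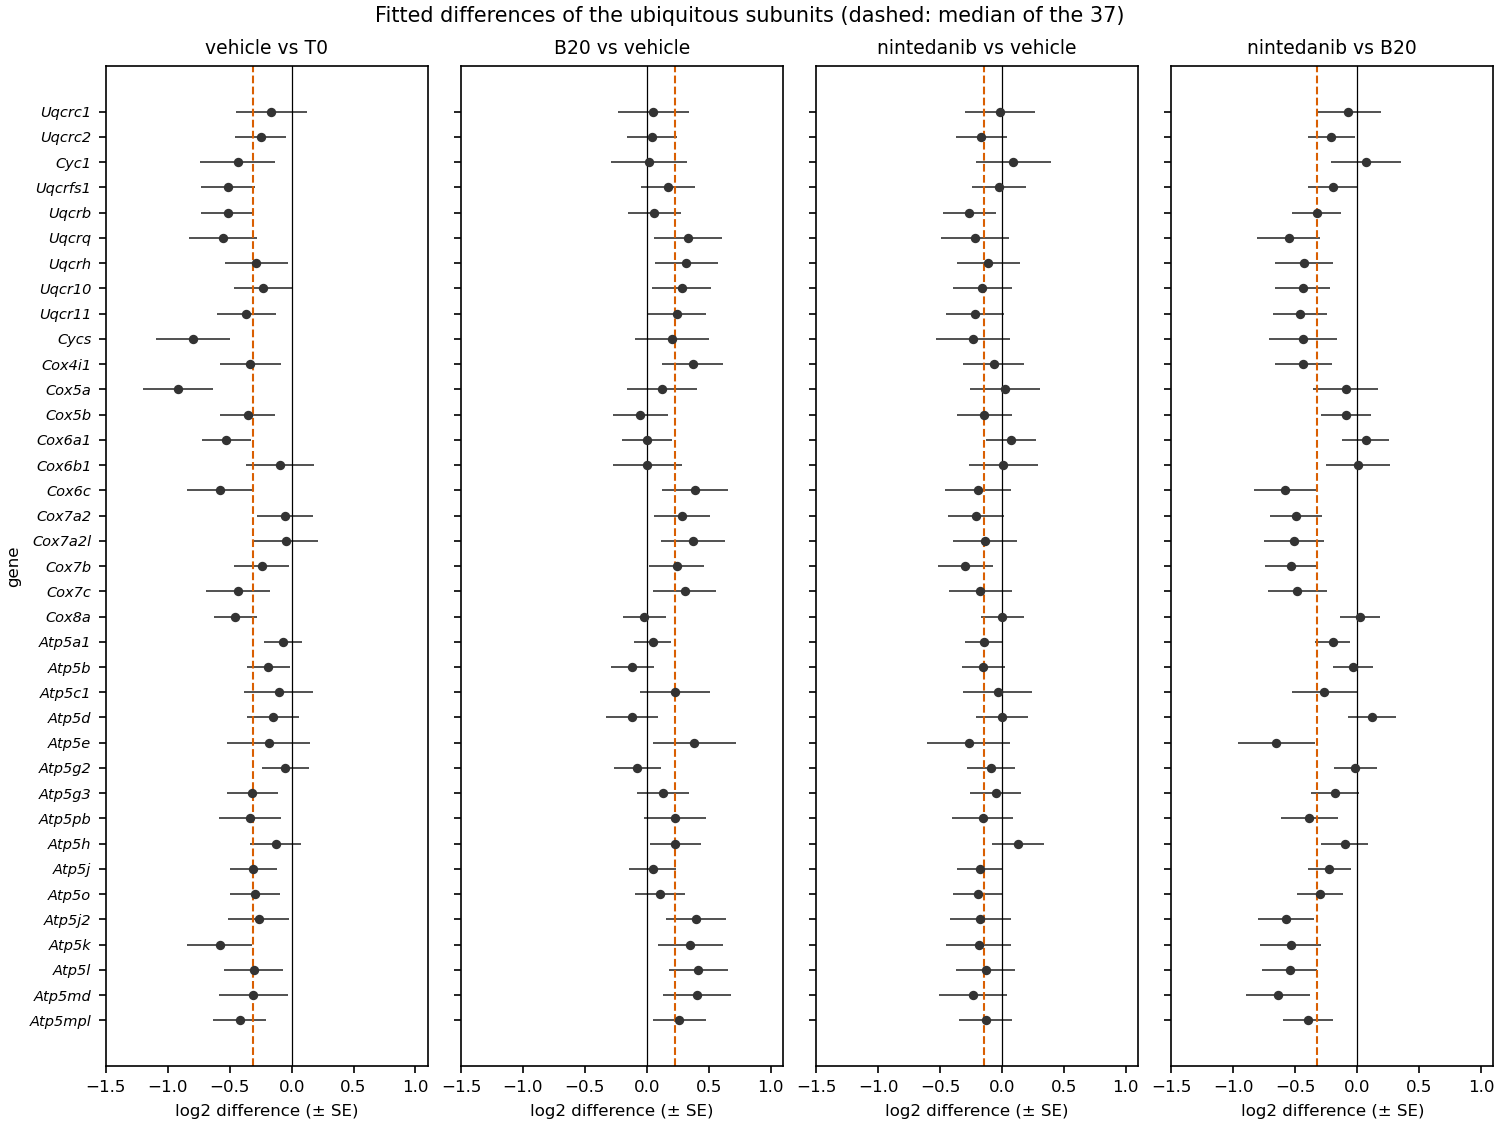
Fitted log2 differences (points) ± SE (bars) of the 37 ubiquitous genes, ordered by complex, in 4 comparisons. The dashed line is the median of the 37 genes (-0.31, 0.23, -0.15 and -0.32 from left to right), and the solid line is 0. In the right panel 16 genes lie below -0.4 and 9 lie within 0.1 of 0.

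Against T0, nintedanib gave the 3 members that passed the limma test. Of the ubiquitous subunits 36 were lower and 1 higher, with a median of -0.45 where all genes had 0.01 and 48.9% of them were lower. In all, 3 of the 42 members passed, all lower, against 11.5% of all genes in either direction and 4.62% lower. At an unadjusted p under 0.05, 19 members were lower and 1 higher, against 28.2% of all genes in either direction and 12.2% lower. Groups were apart for 5 members, against 16.9% of all genes. The share of members called was below that of all genes when both directions are counted. Among lower calls alone it was above, on a count of 3. The number of members passing in either direction ran from 0 to 13 under other settings.

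Uqcrb fell by 0.78 ± 0.20 (SE, adjusted p 0.0245), from 7.09, 6.33, 6.43 and 6.66 in T0 to 5.69, 5.56, 5.99 and 6.14 in nintedanib. Cycs fell by 1.03 ± 0.28 (adjusted p 0.0308), a level 2.04-fold lower, to 4.81, 4.97, 5.54 and 5.06 in nintedanib. Cox5a fell by 0.89 ± 0.26 (adjusted p 0.0436), to 5.72, 6.28, 6.46 and 6.42. In all 3 genes every nintedanib array lay below every T0 array, with the T0 values given above. Just outside the threshold were Atp5k, subunit e of Fo (-0.77 ± 0.24, adjusted p 0.0578), Cox6c of complex IV (-0.77 ± 0.25, adjusted p 0.0608) and Cox4i2, which was higher (0.67 ± 0.22, adjusted p 0.0629). Cox4i2 was -1.23, -1.19, -1.01 and -0.76 in nintedanib, every array above every T0 array.

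The 3 calls depended on the arrays. None of the members passed without nintedanib replicate 1, nintedanib replicate 2 or T0 replicate 1, 1 passed without nintedanib replicate 4 or T0 replicate 4, 5 without nintedanib replicate 3, and 9 without T0 replicate 3. None passed with slide as a random block or with median scaling, while the direction of the 3 genes was the same in all these settings. Shares of all genes passing in these fits are not given here, so the counts are not a result about the members. The median of the ubiquitous subunits was -0.54 without T0 replicate 3 and -0.39 without T0 replicate 4, and -0.28 after quantile normalisation or in the authors' values.

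Markers of several other cell types were also lower in nintedanib than in T0, and those of others were not. Of 14 fat cell markers 13 passed the limma test as lower (median -3.34), as did 5 of 6 milk genes (median -3.53; means of 5.66 to 7.59 in T0 and 2.87 to 4.98 in nintedanib) and 5 of 12 endothelial markers (median -0.91). The median was -2.86 for skeletal muscle markers and -1.84 for brown fat markers, of which 6 of 8 were lower and 2 higher. Group means were higher in nintedanib than in T0 for macrophage (2.72 against 2.42), B and plasma cell (-3.75 against -4.0) and erythroid markers (1.94 against 1.73). The part of these cell types in the levels of the subunits was not tested.

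B20 against T0 gave no call among the 42 members by limma, where 9.54% of all genes passed, and the median of the ubiquitous subunits was -0.13 with 25 lower and 12 higher, against 0.08 for all genes, of which 43.5% were lower. At an unadjusted p under 0.05, 4 members were lower and 1 higher, against 26.1% of all genes in either direction and 10.1% lower. The median ranged from -0.28 without B20 replicate 2 to -0.04 without B20 replicate 3, and was -0.04 without T0 replicate 1, -0.22 without T0 replicate 2, -0.23 without T0 replicate 3 and -0.10 without T0 replicate 4. It was -0.22 after quantile normalisation. Here too 13 of 14 fat cell markers (median -3.04), 4 of 6 milk genes (median -2.65) and 10 of 12 endothelial markers (median -1.51) passed as lower. The medians were -1.58 for skeletal muscle and -1.34 for brown fat markers, of which 6 of 8 were lower and 2 higher. The groups were apart for 3 members (15.5% of all genes), which were Cox5a, Cox8a and Cox4i2. Cox5a was 6.56, 6.77, 5.96 and 5.97 in B20, with its highest array only just under the lowest of T0 (-0.80 ± 0.26, adjusted p 0.071). Cox8a differed by -0.48 ± 0.16 (adjusted p 0.078), and Cox4i2, at -1.56, -1.0, -1.20 and -0.76, by 0.59 ± 0.22 (adjusted p 0.106). Cycs was 5.73, 6.09, 5.05 and 5.25, overlapping T0 (-0.59 ± 0.28, adjusted p 0.194). All 3 comparisons with T0 share its 4 arrays, and their T0 values are the same numbers.

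Of the other genes of the pathway, complex I had medians close to these in the 4 comparisons shown first. The 36 complex I genes, which feed electrons to complex III through ubiquinone, had medians of -0.35 in vehicle against T0 (36 lower), 0.23 in B20 against vehicle (32 higher), -0.12 in nintedanib against vehicle (32 lower) and -0.35 in nintedanib against B20 (35 lower). None of them passed in these 4 comparisons. In nintedanib against T0 their median was -0.52 and 4 of 36 passed as lower, against the 11.5% of all genes in either direction and 4.62% lower given above. These were Ndufs1 (-0.87 ± 0.19, adjusted p 0.0121), an electron-carrying core subunit, and the accessory subunit genes Ndufb3, Ndufa1 and Ndufa5, and 1 passed in B20 against T0 (9.54% of all genes), Ndufs1 (-0.64 ± 0.19, adjusted p 0.0457). The 4 complex II genes had a median of -0.62 in vehicle against T0 and -0.61 in nintedanib against T0, the 5 complex III assembly factors -0.10 and -0.32, and the 5 genes of haem and cytochrome c maturation 0.02 and -0.08. Of the complex II genes, Sdha, the flavoprotein subunit (-0.68 ± 0.16, adjusted p 0.0196), and Sdhb, the iron-sulphur subunit (-0.87 ± 0.25, adjusted p 0.0415), were lower in nintedanib than in T0, and Sdha also in B20 (-0.71 ± 0.16, adjusted p 0.0198). Of 14 regulators of mitochondrial genes, Tfb2m, a mitochondrial transcription factor, was lower in nintedanib than in T0 (-0.78 ± 0.16, adjusted p 0.0095), and Ppargc1b, a coactivator, was lower in B20 than in T0 (-2.68 ± 0.69, adjusted p 0.0301). Of the genes of haem and cytochrome c maturation, Ppox, an enzyme of haem synthesis, was higher than in T0 in vehicle (0.83 ± 0.17, adjusted p 0.0172), B20 (0.66 ± 0.16, adjusted p 0.023) and nintedanib (0.85 ± 0.16, adjusted p 0.00674), and Alas1, which makes the first haem precursor, was lower in B20 (-0.76 ± 0.21, adjusted p 0.0408). These single calls stand beside shares over all genes of 4.94% in vehicle, 9.54% in B20 and 11.5% in nintedanib against T0. Of the 6 measured carriers of ADP and phosphate and the 4 assembly factors of ATP synthase, none passed in any comparison. Of 21 assembly factors of complex IV and 5 of complex III, none passed either. The mitochondrially encoded subunits were not analysed here, since none of their symbols matched a probe.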

How the data were processed

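Spot intensity values (processed signal) were used as the authors deposited them, 1 file per array. Per the file headers, Feature Extraction subtracted the background and detrended each array, without normalisation between arrays. Other values taken from the deposited files are flags of 0 or 1 that say whether a spot was well above background, saturated or an outlier. The authors' table of the series holds log2 values, used as an alternative. How it was made is not stated in these sources, and normexp background correction followed by quantile normalisation gave values that correlated with it at 0.999964 or more on each array.

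Samples were grouped by their titles. Each array was scaled as log2 of the signal minus its 75th percentile, with control spots and outlier spots left out. Spots of a probe were averaged, and 82 probe-array values left without a spot, none of a member, stayed missing in the fit. Accessions were named through RefSeq, which gave a symbol to 26050 of 55681 probes, and among the 14 matching pseudogenes and other near copies cross-hybridisation was not tested. A gene was represented by its brightest probe, and a gene was tested where that probe was well above background on at least 3 of 15 arrays. limma 3.58.1 (R 4.3.3, lmFit and eBayes, two-sided) fitted all 4 groups together over 28041 genes, with Benjamini-Hochberg adjustment and a threshold of 0.05. Of these, 16107 had a symbol, and the others were probe targets without one. The number of arrays limits precision: the median SE was 0.29 for 4 against 3 arrays and 0.27 for 4 against 4. The code was tested on simulated data. Genes described array by array were the 3 ubiquitous members of lowest p in each of 4 comparisons, the isoforms with their partners, the electron carriers and every member called. Members and lists were chosen with earlier results of these data known. Replicate pairs within a group correlated at 0.946 to 0.985 over genes, so none was a copy of another within its group. The samples were treated as unpaired. Of 21 same-numbered pairs, 5 correlated above 0.1 (range -0.246 to 0.38), which cannot exclude a pairing with so few arrays per group.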

Additional observations from a re-analysis of the deposited data

Results flagged for a closer look

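In T0, Cox4i2 was at -1.94 in replicate 3, set apart from the other T0 arrays, the nearest of which was at -1.68. The gap took up most of the range of the group, and was just over the limit used. T0 replicate 3 is also the array on which 84.4% of probes were well above background. Of 57 sets of 4 arrays examined this was the only 1 set apart in this way, and chance alone sets apart about 1 in 20. In the comparisons with T0 it widens the distance of Cox4i2 from the other groups, and the remaining T0 arrays, at -1.63, -1.64 and -1.68, still lay below every vehicle, B20 and nintedanib array.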

How the results depend on the processing

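The number of members passing the test was 0 in B20 against vehicle, nintedanib against vehicle and nintedanib against B20 under every alternative run. In vehicle against T0 (0 as reported) it was 1 with normexp background correction, 2 in the authors' values, 1 where genes had to be well above background on all arrays, 4 with array weights, and 0 to 1 with an array left out (1 without T0 replicate 3 or 4). In B20 against T0 (0 as reported) it was 1 with normexp, 3 with quantile normalisation, 6 in the authors' values and 3 with array weights. In nintedanib against T0 (3 as reported) it was 5 with normexp, 0 with median scaling, 5 in the authors' values, 7 with the stricter filter, 0 with slide as a random block, 0 with only the 2 groups compared, 13 with array weights, 1 with the replicate block, and 0 to 9 with an array left out. The shares of all genes passing under each of these settings are not given here, so the counts are not a result about the members. The cause was not tested. Under the replicate block the medians were -0.28 for vehicle against T0, 0.20 for B20 against vehicle and -0.15 for nintedanib against vehicle, and 4 of 15 arrays correlated best with their own number. With an array left out, the medians ranged from 0.05 to 0.34 for B20 against vehicle, from -0.27 to -0.05 for nintedanib against vehicle, from -0.42 to -0.21 for nintedanib against B20 from -0.56 to -0.35 for nintedanib against T0, from -0.28 to -0.04 for B20 against T0 and from -0.40 to -0.23 for vehicle against T0, and no median changed sign. In the authors' values the medians were 0.06 for B20 against vehicle, -0.05 for nintedanib against vehicle -0.12 for nintedanib against B20, -0.28 for nintedanib against T0, -0.18 for B20 against T0 and -0.24 for vehicle against T0. With normexp the median over all genes was -0.16 in nintedanib against B20. Uqcrb kept its call in 7 of 11 processing alternatives (adjusted p 0.0123 to 0.175), Cycs in 7 of 11 (0.00876 to 0.134) and Cox5a in 6 of 11 (0.0184 to 0.193). In any 1 comparison, probes of a gene disagreed in sign in at most 2 of the 15 genes with several probes. Over all comparisons the genes concerned were Atp5c1, Atp5g2, Atp5h, Cox7a2l and Cox7c. Normexp used the median spot signal, and naming by the array design was not run. Signals of all 42 members were well above background on all 15 arrays.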
